A study of Rattus norvegicus with 180 samples.

Results

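rno-miR-221 and rno-miR-222, called miR-221 and miR-222 from here on, are rat microRNAs (miRNAs, short RNAs that guide a silencing complex to matching sites in messenger RNAs) that are encoded side by side on the X chromosome. They were 2 of the 717 miRNAs measured by the arrays of this rat atlas and were chosen by name, not by their values. The data were 180 1-color miRNA arrays of male Sprague-Dawley rats 10 weeks of age, anesthetized with ether and given no drug. From perfused rats 4, 5 and 6, whose blood was washed out with saline, 55 organs were taken (3 rats per organ). From rats 1, 2 and 3, which were not perfused, liver, kidney, lung, heart atrium and heart interventricular septum were taken (15 of the 180 arrays). Each array held RNA from 1 organ of 1 rat, so the replicates were separate rats. Per the study's methods the intestinal samples were epithelium scraped from the mucosa, liver was a single lobe, and the cerebral regions were dissected from sagittal sections. The samples held mixed cells, so that fewer cells of a type and less RNA per cell cannot be told apart. Values are normalized signal intensities in arbitrary units, scaled per array to the 75th percentile of the 37 miRNAs that were detected on all 180 arrays. A miRNA was called detected on an array when more than 50% of its spots stood well above background.

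miR-221 and miR-222 share their seed, the short stretch near the 5' end by which a miRNA recognizes its targets, and they are usually treated as members of the same family. Known targets include the cell cycle inhibitor Cdkn1b and the receptor tyrosine kinase Kit. The pair is known from blood vessels, where it is abundant in endothelium and rises in proliferating smooth muscle, and from several tumors, among them those of the thyroid and the prostate.

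The mature sequences, taken from RefSeq (rat assembly GRCr8), are shown because the shared seed and the differing 3' parts decide what the array probes could tell apart. The array names without a star were taken as the 3p arms and the names with a star as the 5p arms. Capitals mark the seed, bases 2 to 8 counted from the 5' end.
miR-221: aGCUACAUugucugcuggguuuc
miR-222: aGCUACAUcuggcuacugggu
miR-221*: aCCUGGCAuacaauguagauuuc
miR-222*: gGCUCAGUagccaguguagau

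miR-221 (23 bases) lies at chrX:6023246-6023268 and miR-222 (21 bases) at chrX:6022682-6022702, both on the plus strand. Their first 8 bases are identical, 11 of the 21 positions that can be set side by side without a gap match, and 6 single-base changes turn the first sequence into the second. Of 724 mature rat sequences searched, 2 carry the seed GCUACAU, and these are the pair itself, so no other miRNA of the family was there to be measured. The hairpins they are cut from carry both mature arms, which are in capitals here.
Mir222: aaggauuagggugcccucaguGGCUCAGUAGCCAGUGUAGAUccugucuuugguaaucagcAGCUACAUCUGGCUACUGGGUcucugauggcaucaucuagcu
Mir221: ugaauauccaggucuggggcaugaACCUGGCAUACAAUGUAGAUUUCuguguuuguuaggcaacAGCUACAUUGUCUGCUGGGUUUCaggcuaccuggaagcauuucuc

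The hairpin of Mir222 (103 bases, chrX:6022621-6022723) and that of Mir221 (109 bases, chrX:6023182-6023290) are separated by 458 bases, with Mir222 first on the strand that both share. In the annotation they lie within 2 long noncoding RNA genes, LOC120099382 and LOC120099384. The 5p arms, miR-221* and miR-222*, were detected on 0 of 180 arrays. Their highest normalized signals were 9.62 (miR-221*, cerebral cortex of rat 4) and 5.92 (miR-222*, ventral prostate of rat 5), both under the floor of 10.8 that was applied to all values before log2, the median over arrays of the lowest signal of a detected miRNA. All further values refer to the 3p arms.

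miR-221 was detected widely and miR-222 in fewer organs. Among the perfused rats rno-miR-221 was detected on 153 arrays, in all 3 rats in 48 organs, in 1 or 2 rats in 5 and in none in 2, which were pancreas and duodenum. rno-miR-222 was detected on 89 arrays, in all 3 rats in 20 organs, in 1 or 2 rats in 19 and in none in 16. The normalized signal of miR-221 ran from 5.64 to 850.4 over these rats (median 73.6), and that of miR-222 reached 174 (median 13.5). Because the probes of different miRNAs capture and label with different efficiency, the level of miR-221 is not set against that of miR-222. In 14 organs all 3 arrays put miR-222 at or under the floor, so that differences among those organs could not be measured.

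**Figure D1:**
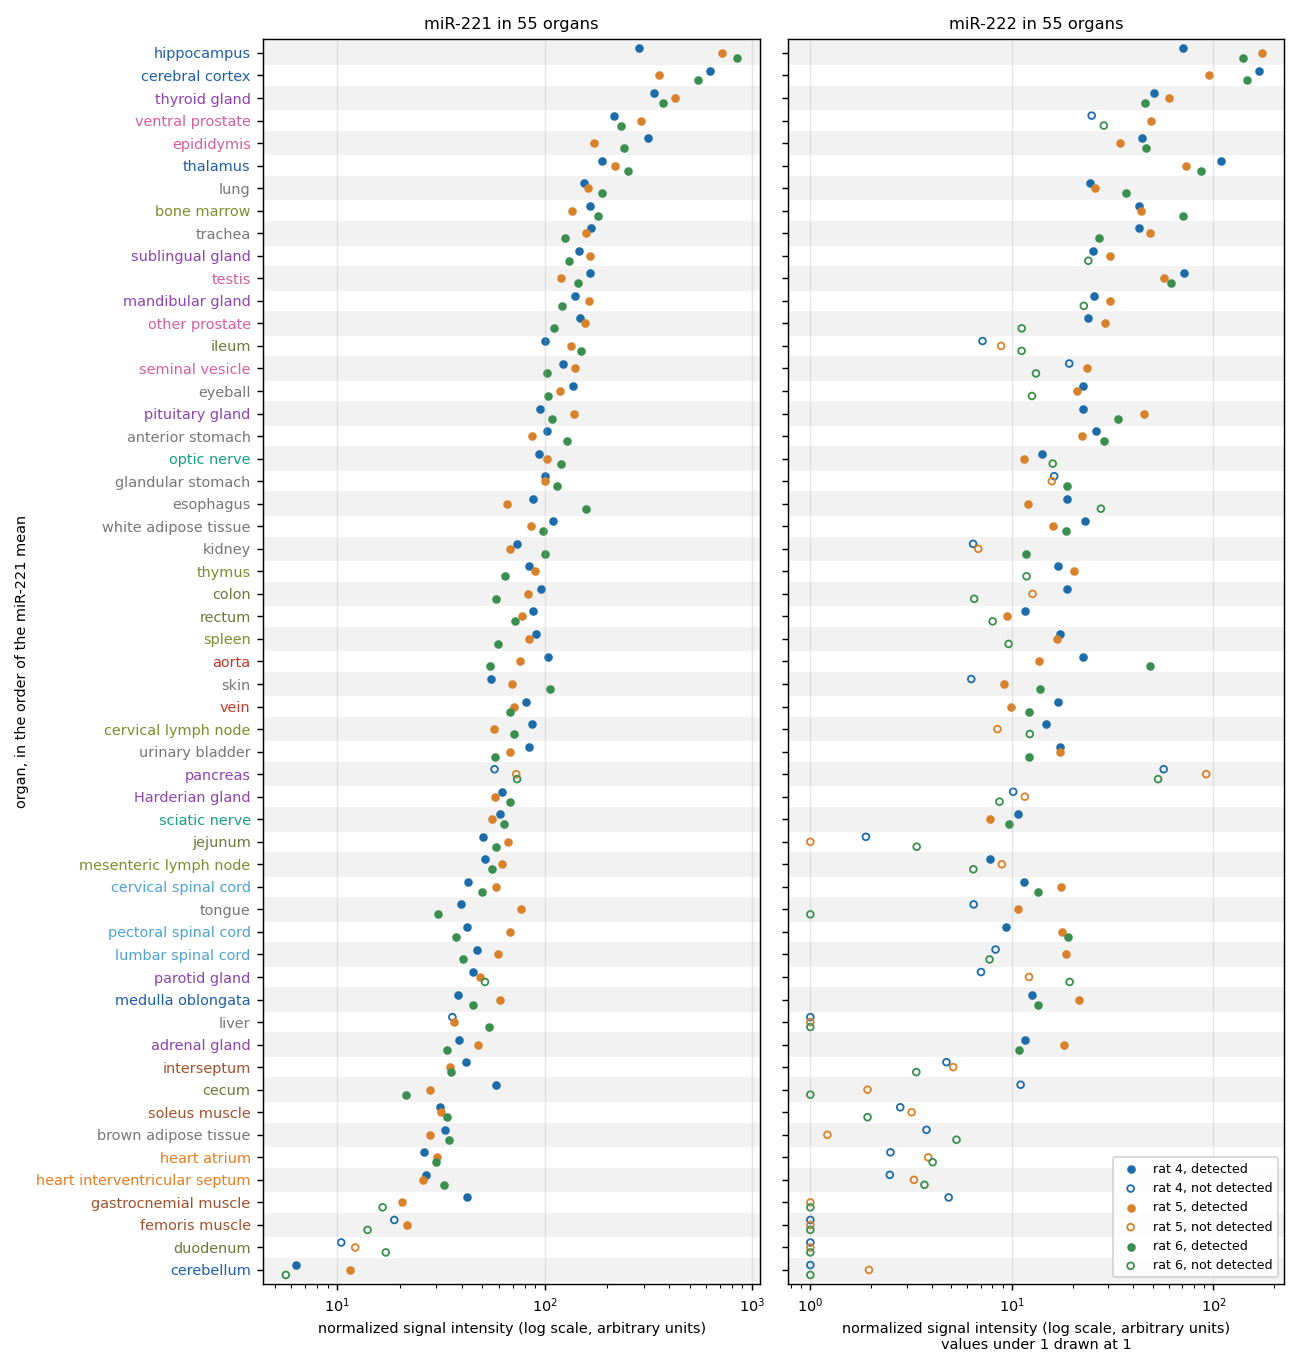
Normalized signal intensity of miR-221 (left) and miR-222 (right) in each of 55 organs of perfused rats 4, 5 and 6 (log axes, arbitrary units), in the order of the miR-221 means, with a point per rat that is filled where the miRNA was detected. Hippocampus and cerebral cortex stand at the upper end of both panels, with values up to 850.4 for miR-221 and 174 for miR-222, and striated muscle, duodenum and cerebellum at the lower end.

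Both miRNAs differed between organs. In a limma fit with a term per organ the F test gave an adjusted p of 5.72e-52 for miR-221 and 9.53e-43 for miR-222 (Benjamini-Hochberg over the 345 miRNAs tested). Of those 345 miRNAs 99.7% were called, so a difference between organs is the rule on these arrays. Set against the mean of the other 54 organs, miR-221 was higher in 20 organs, lower in 19 and not called in 16, and miR-222 was higher in 15, lower in 28 and not called in 12. The counts of miR-222 depended on the floor: with a floor 4 times as high 5 organs were higher and 0 lower by limma, and with a floor 4 times as low 17 were lower. With normexp, a background correction that adds an offset before scaling, 10 organs were lower for miR-222 and 12 higher for miR-221. Over all miRNAs tested and all organs 23.4% of such comparisons were called higher and 50.7% lower. The calls of the members coincided in most organs: 14 organs were higher for both and 17 lower for both, while in 2, ileum and optic nerve, miR-221 was called higher and miR-222 lower.

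The scaling bears on these calls. The samples were also scaled by the 75th percentile over all miRNAs, by quantile normalization, and taken from the authors' own normalized table. Of the 20 organs with higher miR-221, 16 stayed above the mean of the others in all 4 scalings, and eyeball, ileum, pituitary gland and testis turned. Of the 19 with lower miR-221, 18 stayed below and the heart interventricular septum turned. For miR-222, 13 of 15 higher organs (pancreas and pituitary gland turned) and 27 of 28 lower organs (vein turned) kept their direction. Among those 28 are the 14 organs with every array at the floor, which cannot fall further, so their direction says little of stability. The median difference of all tested miRNAs moved by -0.37 to 0.45 log2 units between scalings, depending on the organ. Differences of the members moved further in some organs: aorta against the others ran from -0.014 to 2.09 for miR-221 and from 0.41 to 2.52 for miR-222, and pancreas from -2.77 to -0.17 and from -0.61 to 1.84.

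Cerebral cortex and hippocampus held the highest mean signals of both miRNAs in the main scaling. In the other scalings both stayed well above the mean of the organs, but the thyroid gland ranked 1 for miR-221 in the authors' table and with all miRNAs in the percentile, where hippocampus ranked 3 and 4, and the aorta ranked 1 for miR-222 with all miRNAs, where hippocampus ranked 5. In hippocampus, the seat of memory formation, miR-221 measured 284, 716 and 850.4 in rats 4, 5 and 6. In cerebral cortex it measured 630.2, 357 and 547. The rats of both regions overlapped, so their order is not resolved.

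miR-222 measured 169, 94.5 and 147 in cerebral cortex and 70.7, 174 and 141 in hippocampus. Rat 4 had the lowest hippocampal value and the highest cortical value of both miRNAs. Against the other 54 organs the log2 difference was 2.93 ± 0.19 (SE) for miR-221 and 2.74 ± 0.19 for miR-222 in hippocampus (limma, adjusted p = 5.43e-28 and 1.89e-25). In cerebral cortex it was 2.76 ± 0.19 and 2.89 ± 0.19 (adjusted p = 3.81e-26 and 4.03e-27). Of the miRNAs tested 35.7% were called higher and 43.8% lower in hippocampus, and 34.2% higher and 44.3% lower in cerebral cortex. In the other scalings the differences fell to no less than 1.94 and 1.76 in hippocampus and 1.92 and 2.06 in cerebral cortex.

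The thalamus, the relay below the cortex, came next among brain regions. Its miR-221 measured 189, 219 and 253 and its miR-222 108, 73.1 and 86.4. No rat reached the lowest hippocampal or cortical value for miR-221, whereas for miR-222 the thalamus overlapped both regions. Against the other 54 organs the thalamus was higher by 1.55 ± 0.19 log2 units for miR-221 and by 2.29 ± 0.19 for miR-222 (limma, adjusted p = 3.43e-12 and 2.68e-20), where 39.1% of miRNAs tested were called higher and 40% lower. Over the 4 scalings this difference ran from 0.16 to 1.55 for miR-221 and from 0.89 to 2.29 for miR-222. The geometric mean of miR-221 was 2.27 times as high in cerebral cortex as in thalamus, and that of miR-222 1.51 times.

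The other central regions held far less of both miRNAs. In medulla oblongata, which holds the centers of breathing and circulation, miR-221 measured 38.3, 61.0 and 44.9 and miR-222 12.5, 21.5 and 13.5. In cervical spinal cord miR-221 measured 42.7, 58.5 and 49.6, in the pectoral level 42.2, 68.0 and 37.2, and in the lumbar level 47.2, 59.6 and 40.4. The 3 levels of spinal cord and the medulla overlapped throughout, and rat 5 had the highest miR-221 value in each of the 4. For rat 5, these are organs whose arrays carry 2 different rat numbers in their labels.

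miR-222 in the spinal cord lay near the floor, with 11.4, 17.5 and 13.5 in the cervical, 9.38, 17.7 and 19.0 in the pectoral and 8.30, 18.5 and 7.74 in the lumbar level, where it was detected in 1 rat. Spinal cord was lower than brain by 1.37 ± 0.14 log2 units for miR-221 and by 1.75 ± 0.14 for miR-222 (limma, adjusted p = 5.02e-16 and 1.35e-21). Among all miRNAs tested 27.5% were called lower and 20.3% higher in that comparison. The direction held in all 4 scalings for both. It is a difference of means: for miR-221 the medulla overlapped the cord, and every cerebellar value lay below it. The size for miR-222 rests partly on values set to the floor, in the lumbar and pectoral cord and in all rats in cerebellum, and with a floor 4 times as high and as low it was -0.82 and -1.47.

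The cerebellum, which coordinates movement, had the lowest mean of miR-221 in the main scaling, with rats that overlapped those of duodenum. With quantile normalization and with all miRNAs duodenum and pancreas lay below it, and in the authors' table all 3 had the same value, at the floor. Its signal measured 6.32, 11.5 and 5.64 in rats 4, 5 and 6, with detection in 2 rats. miR-222 measured 0.473, 1.95 and 0.410 and was detected in none. Because 2 of the 3 cerebellar values of miR-221 lay under the floor and were set to it, its ratios of geometric means are lower bounds: it was at least 45.0-fold higher in cerebral cortex and at least 50.4-fold higher in hippocampus than in cerebellum. Computed against the same floor, miR-222 was at least 12.3-fold and at least 11.1-fold higher. These bounds belong to the main scaling and are smaller in the others. Over the 4 scalings miR-221 of cerebral cortex stood from 1.92 to 2.76 log2 units above the other 54 organs. For miR-222 it stood from 2.06 to 2.89 above them.

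The cerebellar arrays carried brain markers. The 3 neuronal markers miR-124, miR-9 and miR-128 were detected on all 3 arrays of cerebellum and of cerebral cortex, with summed signals of 15576 to 20000 in cerebellum and 17784 to 20054 in cerebral cortex. The single markers differed more than the sum: miR-124 lay at 9756 to 13265 in cerebellum and 6252 to 6961 in cerebral cortex, and miR-128 at 2945 to 3652 and 8371 to 8912. Of the striated muscle markers, miR-206 was detected on all 3 cerebellar arrays, at 75.9 to 86.7 against 7.05 to 9.94 in cerebral cortex, and its part in the values of the pair was not tested. The epithelial markers miR-200a, miR-200b, miR-200c and miR-141 were detected on none of these arrays, and neither were miR-451 and miR-144, which mark red blood cells. Other summed markers were lower in cerebellum than in cerebral cortex. The endothelial markers miR-126 and miR-126* lay at 291 to 366 against 484 to 705. The leukocyte markers miR-142-3p, miR-223 and miR-150 lay at 170 to 211 against 289 to 367. The smooth muscle markers miR-143 and miR-145 lay at 213 to 389 against 354 to 867, with overlap. The part of these markers in the values of the pair was not tested either. Against the other 54 organs the cerebellum was lower by 2.83 log2 units for miR-221 (limma, adjusted p = 5.83e-27). The 2 values under the floor were set to it, so this size depends on the floor. In that comparison 46.4% of miRNAs tested were called lower and 29.3% higher. Over the 4 scalings the miR-221 difference ran from -2.83 to -2.65.

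Brain and spinal cord together, which hold both high and low regions, were compared with the other 47 organs. The difference was 0.25 ± 0.07 log2 units for miR-221 and 0.81 ± 0.07 for miR-222 (limma, adjusted p = 9.34e-04 and 3.47e-19, with 40.6% of miRNAs called higher). For miR-221 it fell to 0.16 (adjusted p = 0.104) without rat 5 and turned to between -0.34 and -0.72 in the other scalings, while for miR-222 it was 0.19 to 0.31 in those scalings and turned to -0.17 with normexp.

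The nerves outside brain and cord gave a different pattern for each member. In optic nerve, a tract of myelinated axons, miR-221 measured 94.1, 103 and 120.3, above every value of spinal cord and medulla, and miR-222 measured 14.1, 11.4 and 15.9, within their range. In sciatic nerve, labelled as ischial nerve, miR-221 measured 61.0, 55.9 and 63.3 and miR-222 10.7, 7.80 and 9.72. Sciatic miR-221 overlapped the spinal cord, and sciatic miR-222 lay at or under the floor in all 3 rats.

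Against the 8 regions of brain and cord, miR-222 was lower in sciatic nerve by 1.47 ± 0.20 and in optic nerve by 1.13 ± 0.20 log2 units (limma, adjusted p = 2.50e-10 and 7.46e-07), with 40.9% and 33.3% of miRNAs called lower, and this direction held in all 4 scalings. Since all 3 sciatic values and those of cerebellum were set to the floor, the sizes depend on it: with a floor 4 times as high and as low the sciatic difference was -0.51 and -1.39, and the optic difference -0.51 and -0.83. With normexp the optic difference was -0.00462. For miR-221 the difference was -0.55 ± 0.20 in sciatic nerve (adjusted p = 0.0130, and 0.211 without rat 5) and 0.26 ± 0.20 in optic nerve (adjusted p = 0.363). In the other scalings the sciatic difference turned to 0.54 to 0.66 and the optic difference rose to 0.92 to 1.19. The optic nerve of rat 4 carried striated muscle markers at a summed signal of 4979 against 43.4 and 45.6 in the other rats, and the part of that muscle signal in the values was not tested. Without rat 4 the optic nerve stood 0.56 log2 units above the other 54 organs for miR-221, and with it 0.48.

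Among the 8 glands the thyroid, which makes thyroid hormone, held most miR-221. Its miR-221 measured 337, 424 and 372, above every array of the other glands, and its miR-222 50.7, 60.1 and 45.7. The difference from the other 54 organs was 2.35 ± 0.19 log2 units for miR-221 and 1.51 ± 0.19 for miR-222 (limma, adjusted p = 1.95e-21 and 2.12e-11), where 15.7% of miRNAs tested were called higher. It lay at 2.35 to 3.08 and 1.51 to 2.25 over the 4 scalings. The thyroid of rat 5 carried striated muscle markers at a summed signal of 11616 against 65.0 and 79.7 in rats 4 and 6, and without rat 5 the differences were 2.27 and 1.42. The summed endothelial markers miR-126 and miR-126* lay at 1952, 1888 and 1447 in thyroid. miR-126 alone had a median of 372 over the 24 gland arrays. The summed epithelial markers lay at 3565 to 4359 in thyroid, and the endocrine markers miR-7a and miR-375 at 576 to 679. Their part in the thyroid values was not tested.

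The salivary glands were not alike. In the sublingual gland, a mucous gland, miR-221 measured 146, 166 and 131, and in the mandibular gland 139.8, 163 and 122. In the parotid gland, a serous gland, it measured 45.2, 48.9 and 51.5, below every value of the other salivary glands. miR-222 measured 25.3, 30.6 and 23.9 in the sublingual and 25.5, 30.8 and 22.7 in the mandibular gland (detected in 2 rats each), and was detected in none of the parotid arrays.

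The pituitary gland, which releases hormones that steer other glands, gave 94.7, 139 and 108 for miR-221 and 22.5, 45.4 and 33.5 for miR-222. In the adrenal gland, the source of corticosteroids and epinephrine, miR-221 measured 38.8, 47.9 and 33.8 and miR-222 11.7, 18.1 and 10.8. In the Harderian gland behind the eye miR-221 measured 62.0, 57.6 and 68.0, and miR-222 was detected in no rat. The adrenal values lay below all pituitary values for both miRNAs.

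In pancreas neither miRNA was detected on any array, although the scaled signals (57.3 to 73.6 for miR-221 and 53.1 to 92.0 for miR-222) were not low. The lowest signal of a detected miRNA on these arrays averaged 191 after scaling, so the pancreatic values are only bounded from above, and the call of higher miR-222 there rests on signal that did not stand above background. All 8 glands together were higher than the other 47 organs by 0.39 ± 0.07 log2 units for miR-221 and by 0.50 ± 0.07 for miR-222 (limma, adjusted p = 6.16e-07 and 9.79e-10, with 46.1% of miRNAs called higher and 43.2% lower). Without pancreas the miR-222 difference was 0.30, and in the other scalings the differences lay between -0.17 and -0.076 for miR-221 and between -0.051 and 0.021 for miR-222. A higher level in glands as a group was therefore not seen in every scaling, whereas that of the thyroid was.

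In the vessels both miRNAs were detected on all 6 arrays. In aorta, an elastic artery, miR-221 measured 103, 75.7 and 54.6, and in vein 81.3, 70.9 and 68.3, so the vessels overlapped. The smooth muscle marker miR-143 lay at 7215 to 15887 on the vessel arrays, and miR-124, miR-9 and the 4 epithelial markers were detected on none of them. The neuronal marker miR-128 was detected on all 6, at 13.3 to 29.1, and so were the striated muscle markers miR-1, at 13.6 to 86.6, and miR-133b, at 101 to 341, whereas miR-133a and miR-206 were detected on 0 of the 6. Also detected on all 6 were miR-338, a marker of myelinating glia, at 13.3 to 217, and the red blood cell marker miR-451. The latter lay at 15.5 to 31.1 in aorta and 154 to 231 in vein. So were the leukocyte markers miR-142-3p, miR-223 and miR-150, with a sum of 89.6 to 129 in aorta and 304 to 794 in vein. The part of these markers in the values of the pair was not tested. The summed endothelial markers miR-126 and miR-126* lay at 151 to 363 in aorta and 1610 to 2039 in vein.

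Against the other 53 organs the vessels differed by -0.03 ± 0.14 log2 units for miR-221 and by -0.05 ± 0.14 for miR-222 (limma, adjusted p = 0.807 and 0.714), where 10.7% of miRNAs tested were called higher and 73% lower. This comparison depended on the scaling. With all miRNAs in the percentile, quantile normalization and the authors' table the difference was 1.52, 1.07 and 1.32 for miR-221 and 1.48, 1.37 and 1.24 for miR-222, each called higher. With normexp it was -0.66 and -0.90, each called lower, and with a floor 4 times as low 0.40 for miR-222. The median over all 345 miRNAs in the same comparison was -0.41 with the main scaling and -0.05 with all miRNAs, so relative to it the pair stood 0.38 and 0.36 higher in the first and 1.57 and 1.53 higher in the second. In those 3 scalings the aorta ranked among the 5 highest organs for both miRNAs.

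miR-222 in aorta varied widely between rats. It measured 22.4, 13.6 and 48.3 in rats 4, 5 and 6, against 17.0, 9.89 and 12.1 in vein. The aorta of rat 6 held the highest miR-222 and the lowest miR-221 of the 3, and both probe sequences of miR-222 were high there (40.1 and 56.6). Aorta exceeded vein by 0.91 ± 0.27 log2 units for miR-222 (limma, adjusted p = 0.00619, where 1.45% of miRNAs were called higher), but without rat 6 by 0.36 (adjusted p = 0.900), so in the main scaling the call rested on a single rat. With all 3 rats, the other scalings put the miR-222 difference at 2.09, 1.72 and 1.72, whereas it fell to 0.028 with normexp and to 0.052 with a floor 4 times as high. For miR-221 the difference was 0.04 ± 0.27 (adjusted p = 1), and 0.80 to 1.18 in the other scalings.

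Striated muscle was low for both in the main scaling. In skeletal muscle, miR-221 measured 31.2, 31.6 and 33.8 in soleus, a slow postural muscle, 42.4, 20.6 and 16.5 in gastrocnemial muscle, a faster limb muscle, and 18.8, 21.6 and 14.0 in femoris muscle. It measured 41.5, 34.8 and 35.2 in the tissue labelled interseptum, which the study counts as muscle. In heart it measured 26.3, 30.3 and 30.0 in atrium and 26.7, 26.0 and 32.5 in septum. miR-221 was not detected on 3 of the 18 arrays (femoris muscle of rats 4 and 6, gastrocnemial muscle of rat 6), so the values there are only bounded from above. All 18 arrays lay at or under 42.4, and 126 of the 147 arrays of the other organs lay above that value.

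miR-222 was detected on 0 of the 18 muscle arrays, where its signal reached 5.11 at most. Striated muscle was lower than the other 49 organs by 1.65 ± 0.08 log2 units for miR-221, a fold of 3.15 (limma, adjusted p = 2.99e-38), and 72.5% of miRNAs tested were called lower in the same comparison, so a lower level there is shared with most miRNAs under this scaling. Relative to the median of all miRNAs (-0.26) miR-221 was lower by 1.40. In the other scalings the difference from the other 49 organs was -1.03 to -0.84, and relative to the median -0.94 to -0.78. Over the 4 scalings heart atrium ran from -1.43 to -0.069 and heart septum from -1.45 to 0.049 against the other 54 organs. The skeletal muscles stayed lower in each scaling. The muscle arrays carried miR-1 at 13094 to 72141 on all 18 arrays, and miR-206, typical of skeletal muscle, on all 12 skeletal arrays and 0 of the 6 heart arrays.

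The vessels exceeded striated muscle in miR-221 in all 4 scalings. For miR-222 they did so too, but its muscle values were set to the floor and cannot fall further. That direction therefore says little of stability. The difference was 1.44 ± 0.15 log2 units for miR-221, a fold of 2.71 (limma, adjusted p = 1.00e-14, where 12.5% of miRNAs were called higher). All 6 vessel arrays (54.6 to 103) lay above all 18 muscle arrays (14.0 to 42.4). For miR-222 the fold of vessels over muscle was bounded from below at about 1.42. On each muscle array this bound takes the higher of the signal of miR-222 and the lowest signal of any detected miRNA. The vein value of rat 5 (9.89) was raised to the floor, so a strict bound lies slightly lower. With normexp the difference was 0.043 for miR-221 and -0.58 for miR-222. Heart and skeletal muscle differed by 0.09 ± 0.16 for miR-221 (limma, adjusted p = 1, with 8.7% of miRNAs called higher and 24.3% lower in heart), and soleus and gastrocnemial muscle by 0.40 ± 0.27 (adjusted p = 0.542, with 1.16% called higher and 8.99% lower in soleus), with the gastrocnemial values on either side of soleus. In the other scalings these were 0.93 to 1.11, each called, and 0.72 to 0.96, called in 2 of the 3, and with normexp they turned to -0.53 and -0.52. No value is given for miR-222 within muscle, since it was not detected on either side.

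**Figure D2:**
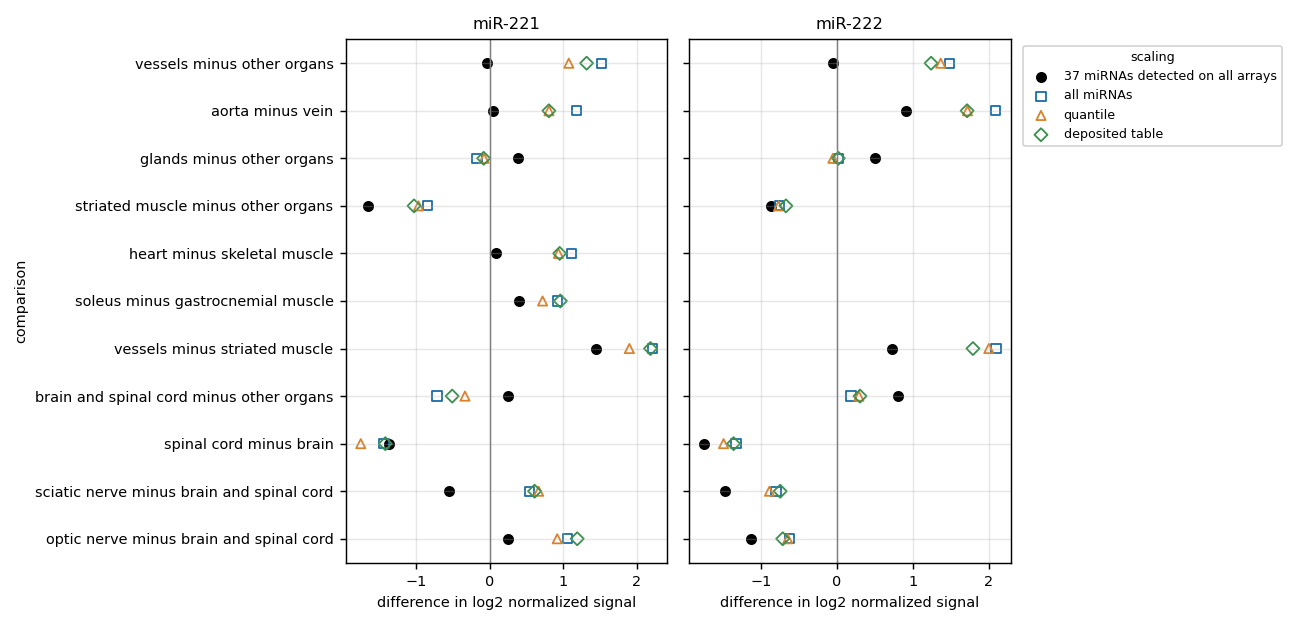
Differences in log2 normalized signal of miR-221 (left) and miR-222 (right) for each comparison of organ groups, with a marker for each of 4 scalings of the same arrays. The markers of striated muscle against other organs, vessels against striated muscle and spinal cord against brain lie on the same side of 0 in both panels, whereas those of vessels against other organs run from -0.03 to 1.52 for miR-221 and from -0.05 to 1.48 for miR-222. For miR-222 the muscle values were set to the floor, so the side of its comparisons with striated muscle could not turn. No marker is drawn for miR-222 within muscle.

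Outside these systems all 5 reproductive organs were called higher in miR-221 in the main scaling. Over all miRNAs and organs 23.4% of such comparisons were called higher, and the share within each of these organs is not given here. In ventral prostate miR-221 measured 216, 290.1 and 233, in epididymis, where sperm mature, 314, 173 and 242, and in testis 165.5, 120.1 and 144. All 15 arrays of the 5 reproductive organs lay between 103 and 314. In testis miR-222 was high as well, at 71.2, 56.7 and 61.3, above all values of ventral prostate (24.9, 49.1 and 28.6) and epididymis (44.1, 34.5 and 46.2), an order opposite to that of miR-221. In ventral prostate miR-222 was detected in 1 rat.

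Ventral prostate exceeded the other 54 organs by 1.72 ± 0.19 log2 units and epididymis by 1.66 ± 0.19 for miR-221, and testis by 1.79 ± 0.19 for miR-222 (limma, adjusted p = 4.75e-14, 1.91e-13 and 1.43e-14). Over the 4 scalings the first ran from 1.72 to 2.27, the second from 0.75 to 1.66 and the third from 0.47 to 1.79. Ventral prostate miR-222 ran from 0.83 to 1.24, and testis lay below it in each of the other 3 scalings. Testis miR-221, 0.92 above the other organs in the main scaling, ran down to -0.40.

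Lung, trachea and bone marrow lay above the other organs for both members in all 4 scalings. The miR-222 difference of trachea turned to -0.43 with normexp and to -0.058 with a floor 4 times as high. In lung, an organ rich in capillaries, miR-221 measured 154, 161 and 189 and miR-222 24.5, 25.9 and 36.9. In trachea, with its cartilage and airway epithelium, they measured 168, 158 and 126 and 42.6, 48.2 and 27.0. In bone marrow, where blood cells form, they measured 166, 136 and 181 and 42.8, 43.6 and 70.5. Bone marrow lay above spleen, thymus and both lymph nodes, whose 12 miR-221 arrays ran from 51.3 to 91.0, without overlap.

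The intestinal samples of scraped mucosa differed among themselves in miR-221, which was called lower in duodenum and cecum, higher in ileum and neither in jejunum, colon and rectum (88.0, 77.5 and 71.6). miR-222 was called lower in all 6. Over all miRNAs and organs 50.7% of such comparisons were called lower and 23.4% higher. The shares within the intestinal organs are not given here. miR-222 was detected in no rat in duodenum, jejunum, ileum or cecum and on 3 of the 18 arrays of the 6 intestinal organs. Duodenal miR-221 (10.4, 12.2 and 17.1) was detected in no rat, but ileal miR-221 measured 99.8, 135 and 149. Liver (35.9, 36.3 and 53.7 for miR-221), brown adipose tissue (33.1, 27.9 and 34.6) and cecum (58.5, 28.0 and 21.4) were low in miR-221 as well, and miR-222 was detected in none of these 3 organs.

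The order of the organs was resolved only in part. Of 54 neighbouring pairs of organs in the order of miR-221 means, 2 did not overlap between rats (thyroid gland above ventral prostate, and thalamus above lung), and for miR-222 all 54 overlapped. The spread between rats within an organ, pooled over the 20 organs in which both were detected in all rats, was 0.34 log2 units for miR-221 and 0.41 for miR-222, against spreads between organs of 1.14 and 1.11.

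The members followed each other over the organs. The Pearson correlation of their mean log2 signals was 0.79 over 55 organs (Spearman 0.84) and 0.92 over the 20 organs in which both were detected in all 3 rats (Spearman 0.89). Within rats 4, 5 and 6 it was 0.79, 0.77 and 0.75 over the 55 organs. These are descriptions: the points share arrays, scaling and, in 16 organs, a miR-222 that was not detected. Without cerebral cortex and hippocampus it was 0.72 (0.86 over the 18 remaining detected organs), and without all of brain and cord also 0.72 (0.84 over 14), so it did not rest on the high brain regions alone.

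**Figure D3:**
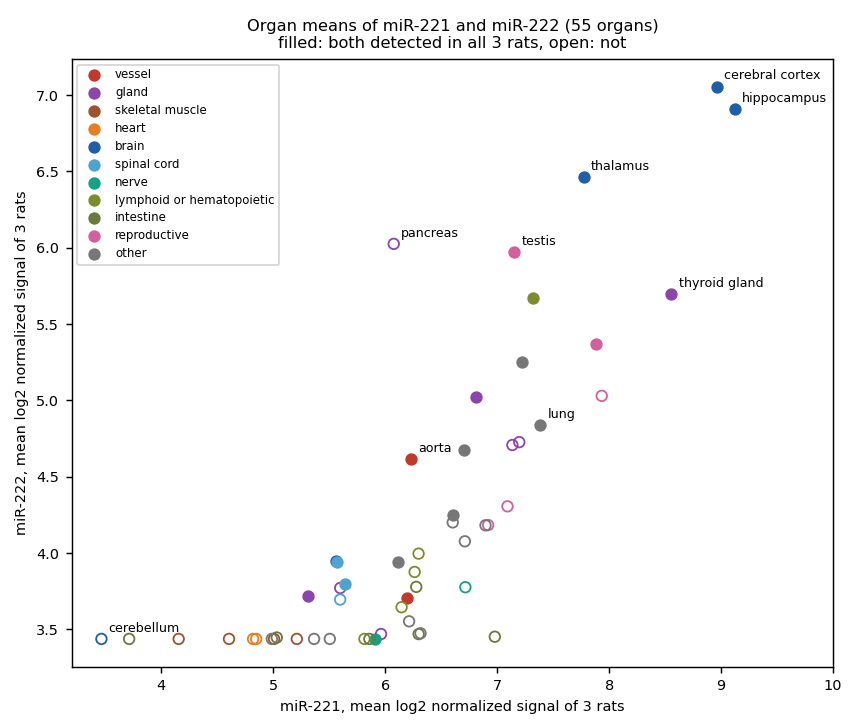
Mean log2 normalized signal of miR-222 against that of miR-221, each point an organ (mean of 3 perfused rats), colored by organ class and filled where both were detected in all 3 rats. The points rise together from the floor at the lower left to cerebral cortex and hippocampus at the upper right (Pearson 0.79 over 55 organs). Pancreas, where neither was detected, lies above the other organs of similar miR-221.

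Each member was the other's closest match. Among 143 miRNAs detected on at least 50% of the perfused arrays, or the member itself, the median correlation with miR-221 was 0.01 and with miR-222 0.02. After miR-222, the next for miR-221 were miR-148b-3p (0.34), miR-29b (0.32), miR-324-5p (0.31) and miR-218 (0.30). After miR-221, the next for miR-222 were miR-29a (0.45), miR-664 (0.45), miR-218 (0.41) and miR-324-3p (0.41). The lowest correlation with both belonged to miR-378* (-0.54 and -0.53).

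Beside 14 other pairs of neighbouring miRNA genes, however, the pair was not among the closest. By correlation over 55 organs it ranked 14 of 15, between miR-23b and miR-27b at 0.81 and miR-30b-5p and miR-30d at 0.49, with miR-200a and miR-200b first at 0.997. The correlation of miR-221 and miR-222 over 55 organs depended on the floor. It was 0.64 with a floor 4 times as high and 0.87 with one 4 times as low. The other pairs were not ranked with those floors. Over the organs in which both members of a pair were detected, miR-221 and miR-222 ranked 9 of 15 by correlation. By the SD of the log2 difference, smallest first, they ranked 8 of 15. These sets of organs are unlike in size, from 3 for miR-183 and miR-182 to 55, against 20 for miR-221 and miR-222. The 2 probe sequences of miR-222 correlated with each other at 0.951 over the organs, those of miR-221 at 0.997, and probe sequences across members at 0.73 to 0.83. Probe bases were not used here, so cross-hybridization between these similar sequences was not tested.

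The log2 difference of the members, miR-222 minus miR-221, was compared between organs as a measure of how closely they kept step. Over the 20 organs it was highest in testis, at -1.22, -1.08 and -1.24 in rats 4, 5 and 6, and lowest in thyroid gland, at -2.74, -2.82 and -3.03. Relative to miR-221, miR-222 was thus 1.68 log2 units higher in testis than in thyroid gland, with no overlap between rats. In cerebral cortex the rats lay closest to each other (-1.90, -1.92 and -1.89), although their levels of each member spread widely. In lung it was -2.65, -2.64 and -2.35.

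**Figure D4:**
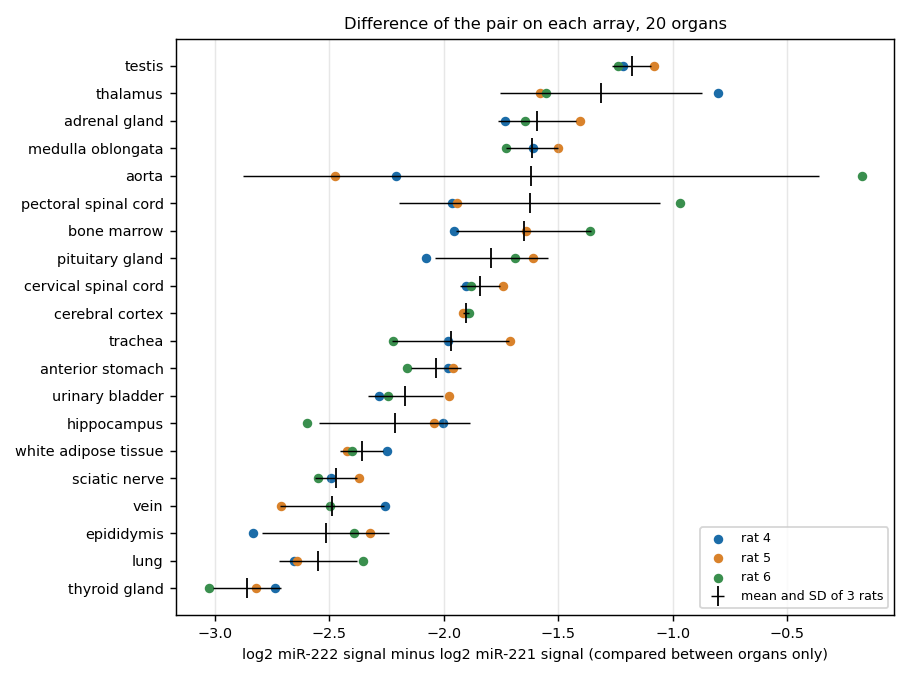
Difference of the log2 signals of miR-222 and miR-221 on each array of the 20 organs in which both were detected in all 3 rats, in the order of the means, with a point per rat and the mean and SD of 3 rats. Testis lies at the upper and thyroid gland at the lower end (means -1.18 and -2.86), and the aorta spreads from -2.47 to -0.18.

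Organ accounted for 68.9% of the sum of squares of this difference (permutation test with organ labels permuted within each rat, p = 1e-05, the smallest that 100000 permutations give). In aorta the difference was -2.21 and -2.47 in rats 4 and 5 but -0.18 in rat 6, and without aorta the share was 83.6%. Without rat 4, 5 or 6 it was 71.2%, 73.2% and 89.7% (permutation p = 0.0226, 0.0195 and 2e-05). Organ takes part of the sum of squares under permuted labels as well, and a larger part with fewer rats. The shares without a rat therefore cannot be set against 68.9%. With the other scalings and all 3 rats the share was 77.8% to 81.2%. In sciatic nerve, 1 of the 20 organs, all 3 values of miR-222 were set to the floor, so its difference reflects the floor and miR-221 alone.

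Within organs the members also moved together from rat to rat. The deviations of miR-221 and miR-222 from their organ means had the same sign on 45 of 60 arrays and a correlation of 0.53 (Spearman 0.64), or 0.76 over 57 arrays without aorta. In sciatic nerve every miR-222 value was set to the floor, so miR-222 had no deviation there and could not share a sign. The members of a point share an array and its scaling, and the part of this in the correlation was not tested.

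The 5 organs taken with and without perfusion address whether blood left in an organ changed the level of the pair. In lung miR-221 measured 137, 153 and 171 in rats 1, 2 and 3 and 154, 161 and 189 in perfused rats 4, 5 and 6, and in kidney 72.9, 72.1 and 75.3 against 73.7, 68.2 and 100.5. In liver it measured 36.6, 39.5 and 42.8 against 35.9, 36.3 and 53.7, and in heart atrium 18.8, 32.7 and 31.1 against 26.3, 30.3 and 30.0. In heart septum it measured 18.4, 25.9 and 24.1 against 26.7, 26.0 and 32.5, the only organ without overlap.

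Perfused rats exceeded the others in log2 signal by 0.13 in lung, 0.12 in kidney, 0.06 in liver, 0.11 in atrium and 0.33 in septum, each with an SE of 0.19 (limma, adjusted p = 1). In 3 organs the direction was not stable: kidney gave -0.64 with normexp, liver -0.00989 with the slide as a random block, and leaving out a rat gave values down to -0.13 in liver, -0.051 in kidney and -0.15 in atrium. Of the 191 miRNAs tested, 0% were called in any of the 5 organs, against 3 to 12 per organ at an unadjusted p under 0.05, and 0 were called for a difference of the effect between organs. An exact two-sided permutation test of the septum gave p = 0.1, the smallest that 3 against 3 rats allow, and 1 after adjustment over the family of tests. For miR-222, lung measured 23.7, 25.4 and 32.4 against 24.5, 25.9 and 36.9, a log2 difference of 0.09 ± 0.10, and kidney had 1 detected array among 6. In liver, atrium and septum miR-222 was detected in neither condition.

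The red blood cell marker miR-451 was compared in the same way. In kidney it measured 132, 163 and 227 in rats 1, 2 and 3 and 15.4, 9.87 and 15.0 in the perfused rats, and in liver 272, 474 and 497 against 167, 113 and 156. In both heart regions the groups did not overlap either, with 223 to 800.0 against 15.4 to 86.8. In lung the perfused rats measured 17.5, 422 and 1080 against 405, 559 and 558, so rats 5 and 6 still carried it above the lowest value without perfusion. The other red blood cell marker, miR-144, was detected on fewer arrays. In lung it measured 10.8, 12.3 and 17.5 in rats 1, 2 and 3 and 0.147, 11.0 and 42.8 in the perfused rats, a difference of 0.38 ± 0.34 log2 units, and in kidney it was detected in neither condition. In liver it was not detected either, with signals of 19.4, 24.0 and 40.4 against 9.23, 3.85 and 8.61 that did not overlap and a difference of -1.29 ± 0.34 (limma, adjusted p = 0.107). In atrium and septum, where it was detected in 2 and 1 of the rats without perfusion and in none of the perfused rats, the differences with values under the floor set to it were -0.23 and -0.25 (limma, adjusted p = 1). The differences of miR-451 ran from -3.64 to -1.33 log2 units with an SE of 0.93 (limma, adjusted p = 0.149 to 0.944).

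**Figure D5:**
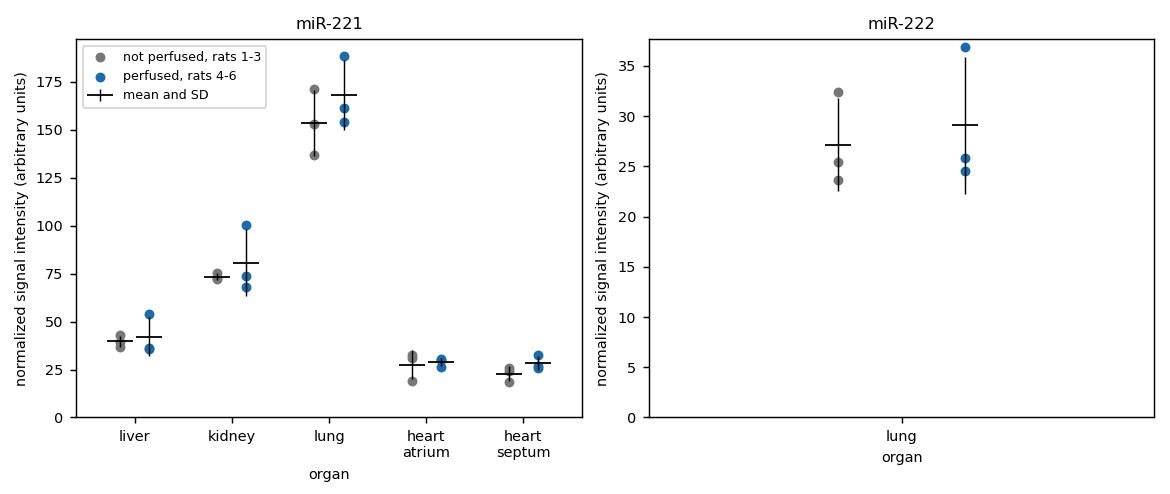
Normalized signal intensity of miR-221 in 5 organs (left) and of miR-222 in lung (right) in 3 rats that were not perfused and 3 perfused rats, with points for rats and lines for mean and SD (arbitrary units, axes from 0). The groups overlap in every organ but heart septum, where miR-221 measured 18.4 to 25.9 without and 26.0 to 32.5 with perfusion.

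The wider series entered these values as follows. Between 86 and 244 miRNAs were detected per array, 425 of 717 on at least 1 array, no spot was saturated (0 over 180 arrays), and the 75th percentile used for scaling ran from 68.0 to 6343 before scaling. The dimmest arrays are thus stretched most, and a probe at background on them carries little information.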

How the data were processed

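RNA of 180 samples (55 organs of perfused rats 4 to 6, and 5 organs of rats 1 to 3) was hybridized to 1-color Agilent miRNA arrays. Organ, rat and perfusion came from the labels. For 8 arrays on 1 slide (medulla oblongata, pituitary gland, the 3 levels of spinal cord and 3 limb muscles) the labels give 2 rat numbers. The title's number was kept here, and the fits were repeated without these arrays. Scanner files (Agilent Feature Extraction 10.7.3) were deposited by the authors for every array, and their background-corrected spot signal intensities were used. A deposited table of normalized intensities, 1 value for each miRNA and array, served as an alternative. By a single summary ratio the values of that table are 1.98 times those given here, but the ratio is not the same on every array.

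Spots marked as outliers (1.63% to 6.43% of 14340 per array) were left out. The mean of the remaining spots was taken for each probe sequence (10 spots each), followed by the mean of both sequences of each miRNA. Each array was divided by its 75th percentile of 37 miRNAs and multiplied by 2118, the mean of these percentiles. Signals below 10.8 were raised to that floor before log2. Organs were compared in limma 3.58.1 (R 4.3.3) with a term per organ over the arrays of the perfused rats and 345 miRNAs (those detected in all 3 rats in 1 organ or more), and the conditions in a fit of 10 groups over 30 arrays and 191 miRNAs. p-values were adjusted by Benjamini-Hochberg, with a threshold of 0.05. Calls against the other 54 organs were adjusted over miRNAs and organs together. The pair difference and the exact tests were computed in Python 3.11.15 with scipy 1.17.1. The fits were tested on simulated data.

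The members, gene lists, comparisons and markers were chosen with earlier results of these data known. By rule the text names the members, their 5p arms, miRNAs with the same seed, the 5 miRNAs most like each member, the markers, and every vessel, gland, muscle and nervous organ plus the 5 highest and lowest others. Ileum, jejunum, colon, rectum, liver, testis, trachea, lymph nodes, spleen and thymus were named, where outside that rule, after their values were seen, as were the split of the brain into higher and lower regions, the statements on rat 6 in aorta, the markers in cerebellum by single values, and miR-451 in the perfusion comparison.

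Alternatives changed the scaling, the floor (4 times as high or low), the background (normexp on the median spot signals with an offset of 50, since mean signals were not used here), the summary of spots, the filter, the blocks and the arrays used. Scan day as a term and leaving out pancreas or aorta were chosen after seeing the data. Arrays with the same rat number come from the same rat. The residuals of arrays of the same rat had a mean correlation of 0.05, and of different rats -0.02. For the same rat and slide it was 0.17. The arrays lay on 23 slides scanned on 3 days. Probe bases were not used here.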

Additional observations from a re-analysis of the deposited data

How the results depend on the processing

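Of 37 results that answer a comparison 13 kept their direction, or their count within 1.5 times, and their side of the threshold under all alternatives, and of 38 further values of single organs 16 did. The limits are the scaling, the low signal of miR-222, 3 rats per group, and samples of mixed cells. With the rat as a replicate block no call changed, and for example aorta minus vein stayed at 0.91 for miR-222 and vessels minus striated muscle at 1.44 for miR-221. For the pair difference the rat is part of the test itself, and it was not run with the slide as a block or with other filters.

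In log2 units, in the order of scaling over all miRNAs, quantile normalization and the authors' table, miR-221 gave 1.52, 1.07 and 1.32 for vessels minus other organs, 1.18, 0.81 and 0.80 for aorta minus vein, -0.17, -0.076 and -0.082 for glands, 1.11, 0.93 and 0.95 for heart minus skeletal muscle, -0.72, -0.34 and -0.51 for brain and spinal cord, 0.54, 0.66 and 0.61 for sciatic nerve, 1.05, 0.92 and 1.19 for optic nerve, and -0.51, -0.37 and -0.31 for pituitary gland. Soleus minus gastrocnemial muscle passed the threshold at 0.92 and 0.96 in the first and the last. Heart septum miR-221 turned to 0.049 in the first. miR-222 gave 1.48, 1.37 and 1.24 for vessels, 0.021, -0.051 and 0.021 for glands, -0.25, -0.25 and -0.10 for pituitary gland and 0.39, 0.47 and 0.34 for vein. The cause was not tested.

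With the floor 4 times as high, which removes most of the range of miR-222, it gave 0.052 for aorta minus vein, 0.000333 for glands, 0.026 for vessels minus striated muscle, -0.071 for epididymis, -0.087 for pituitary gland and -0.058 for trachea, with 5 organs higher and 0 lower than the others by limma, while miR-221 gave -0.014 for optic nerve. With the floor 4 times as low miR-222 gave 0.40 for vessels and 0.044 for cervical spinal cord, with 17 organs lower.

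With normexp, whose offset is added before scaling and so compresses dim arrays, miR-221 gave -0.66 for vessels, -0.085 for aorta minus vein, -0.53 for heart minus skeletal muscle, -0.52 for soleus minus gastrocnemial muscle, 0.043 for vessels minus striated muscle, -0.11 for brain and spinal cord, -0.089 for pituitary gland and -0.64 for perfusion in kidney, with 12 organs higher. miR-222 gave -0.90 for vessels, 0.028 for aorta minus vein, -0.58 for vessels minus striated muscle, -0.17 for brain and spinal cord, -0.00462 for optic nerve, -0.26 for pituitary gland, -0.43 for trachea and -1.01 for perfusion in kidney, with 10 organs lower. With the slide as a random block perfusion in liver gave -0.00989 for miR-221, and with the rats that were not perfused heart minus skeletal muscle gave -0.019.

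The correlation of the pair was 0.64 and 0.87 with the higher and the lower floor, 0.87 with normexp, 0.82 without pancreas, 0.92 over the organs where both were detected and 0.88 on linear signals.

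Leaving out each rat in turn, miR-221 ranged from -0.19 to 0.10 for vessels, -0.11 to 0.22 for aorta minus vein, 0.16 to 0.37 for brain and spinal cord, -0.67 to -0.42 for sciatic nerve and -0.090 to 0.27 for heart minus skeletal muscle, and in the perfusion comparison from -0.13 to 0.16 in liver, -0.051 to 0.23 in kidney and -0.15 to 0.25 in atrium. miR-222 ranged from -0.29 to 0.26 for vessels, 0.36 to 1.20 for aorta minus vein and -0.10 to 0.22 for perfusion in lung.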
